A study of Mus musculus with 12 samples.

Results

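RNA-seq values of 45 sarcomere and striated muscle calcium genes were followed in WT and *Snap29* KO mouse embryonic stem cells (ESCs) and in the cells derived from them after 14 days. The members were chosen by gene name, as genes that build the contractile apparatus of skeletal and cardiac muscle, its Z-disc, or its calcium store, and all 45 were found among the 55471 genes of each table. The choice was made with earlier results of these data known, and the study itself reports *Acta1* and *Trim54* as increased in KO cells. It also names *Cav3* and a troponin T gene among representative myogenesis genes, most of which it reports as increased. Shares of members set beside those of all genes are therefore no independent support. By role they are 3 thin filament genes (actins and a tropomyosin), 8 troponins, 4 myosin heavy chains, 6 myosin light chains, 6 genes of myosin binding, M-band and giant filament proteins, 7 Z-disc and intermediate filament genes, 7 calcium genes, and 4 genes grouped as creatine kinase, caveolin and muscle RING fingers. By the tissue each is best known from, 15 are skeletal, 10 cardiac, 7 belong to heart and slow skeletal muscle, and 13 to both.

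The cells were J1 ESCs, a feeder-free male mouse line of 129S4/SvJae origin. The 4 groups held 3 libraries each. WT and KO at day 0 were undifferentiated ESCs kept in LIF. WT and KO at day 14 had been grown without LIF as embryoid bodies, in hanging drops for 3 days and on plates for 11. KO cells came from CRISPR/Cas9 editing of *Snap29* exon 2, and the study names 1 clone, KO-2, with a 1 bp insertion, for its transcriptomes, although it names no clone for day 14. *Snap29* encodes a SNARE protein of membrane fusion. Day 14 cultures were mixtures of cells, and in bulk RNA fewer cells of a type and less RNA per cell cannot be told apart.

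The sarcomere is the repeating unit of striated muscle, in which myosin thick filaments pull on actin thin filaments anchored at the Z-disc. Troponin and tropomyosin hold the thin filament closed until calcium, released through ryanodine receptors from a store that calsequestrin buffers, binds troponin C, and SERCA pumps then return the calcium. Most of these proteins come in paralogs used by fast skeletal, slow skeletal or cardiac muscle, and developing muscle of one kind transiently uses paralogs of another. Embryoid bodies are known to form both beating cardiomyocytes and skeletal myocytes.

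Depth was 16638790 to 19226488 assigned fragments per library. *Snap29* stood at 9.37% of the WT mean in KO ESCs and at 22.3% in KO day 14 cells, and *Atrx*, a chromatin remodeller on the X chromosome, at 1.23% and 1.02%, so differences between KO and WT cannot be assigned to *Snap29* alone. The core pluripotency list summed to 1621 to 1819 FPKM (fragments per kilobase of gene, scaled to library depth) over the 6 ESC libraries and 479 to 710 FPKM at day 14. WT replicate 3 of day 14 stood apart from the other WT libraries. The 45 members summed to 236, 191 and 344 FPKM in WT replicates 1, 2 and 3 at day 14, against 538, 472 and 577 FPKM in KO, and to 167 to 195 FPKM in ESCs. A few genes dominated these sums. At day 14 the 3 thin filament genes had a mean sum of 104 FPKM in WT and 307 in KO, and the 7 calcium genes 47.8 and 46.1. Of the 40 members tested at day 14, 22 were higher in WT replicate 3 than in both other WT libraries, against 40.1% of all genes tested. Calls between KO and WT at day 14 are therefore given with and without that library. Since it was set apart on values of the members themselves, calls made without it are no independent support.

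**Figure D1:**
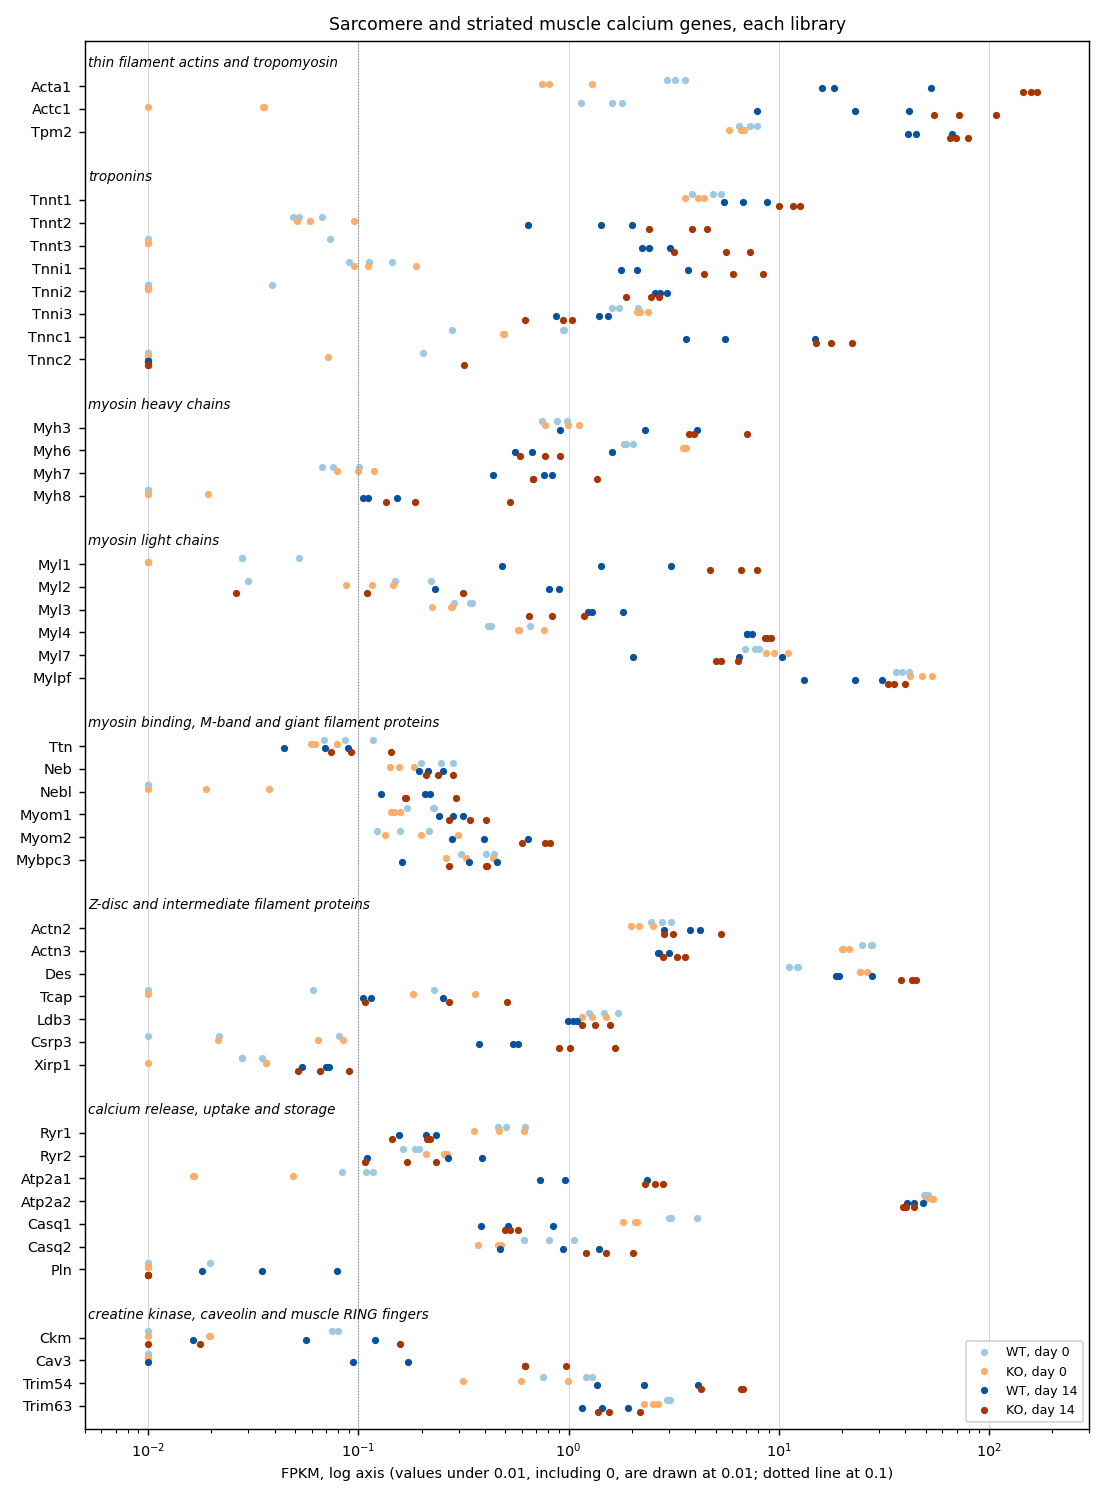
FPKM of each of the 45 members in each of the 12 libraries, on a log axis, grouped by role; a point is 1 library, and values under 0.01 FPKM, 0 included, are drawn at 0.01. *Acta1* spans 0.746 to 169 FPKM, while *Atp2a2* stays between 38.9 and 54.1 FPKM in all 12 libraries.

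The promoters of the sarcomeric actins are shown first, because these are the 2 members whose KO effect differed most between days, and both are textbook genes of the CArG box, the site bound by serum response factor. RefSeq (GRCm38.p6) gave promoters for 37 of the 45 members. The 250 bases before the start of *Acta1* (chr8:123894776-123895025, minus strand) follow with the CArG box in capitals. The sequence holds a TATAAA match near its end.
Acta1 promoter: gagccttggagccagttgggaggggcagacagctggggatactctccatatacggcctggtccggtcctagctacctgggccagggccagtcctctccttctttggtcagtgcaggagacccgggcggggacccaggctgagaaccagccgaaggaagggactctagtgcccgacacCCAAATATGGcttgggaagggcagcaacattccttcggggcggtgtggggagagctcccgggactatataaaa

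CArG boxes stood in 6 of the 37 member promoters (16.2%) and in 482 of all 32851 promoters (1.47%). For each member only the promoter nearest its gene start was searched, while the share of all promoters counts every entry, so a gene can count several times. Each is printed with 10 bases on either side to let the core and its surroundings be compared, and its first base lies 73 (*Acta1*), 47 (*Actc1*), 85 (*Myl3*), 61 (*Myl7*), 99 (*Myom1*) or 35 (*Ldb3*) bases before the RefSeq start.
Acta1: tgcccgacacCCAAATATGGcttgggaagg
Actc1: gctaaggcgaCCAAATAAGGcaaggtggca
Myl3: gagccaatgcCCTTTTATGGccctgtccct
Myl7: ccattcctctCCTTATTTGGgcctctgggt
Myom1: gccttcctggCCATAAAAGGctggctgtgg
Ldb3: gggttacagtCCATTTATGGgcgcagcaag

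The windows lie at chr8:123894829-123894858, chr2:114052903-114052932, chr9:110763583-110763612, chr11:5898824-5898853, chr17:71019448-71019477 and chr14:34588697-34588726, in that order, and those of *Actc1*, *Myl3* and *Myom1* fall inside the gene as the tables delimit it. The RefSeq starts used for *Acta1*, *Actc1*, *Myl3* and *Myom1* lie 24, 673, 21817 and 16924 bases from that gene's own start, in that order. Of the other motifs searched, on both strands and allowing overlaps, the E-box CANNTG stood in 33 of 37 member promoters (89.2%) and 66.2% of all, TATAAA in 8 (21.6%) and 12.4%, and the MEF2 motif in 4 (10.8%) and 2.92%. A match is a description of the letters. Binding was not measured. The 6 genes with a CArG box moved in different ways, as the values below show.

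The KO effect at day 14 was asked first. Tested with limma on log2(FPKM + 0.1), 2 of 40 members were higher in KO at an adjusted p under 0.05, *Acta1* and *Des*, and 0 were lower, a share of 5% and 0%. Across all 20506 genes tested, 1.45% were called higher and 0.883% lower. At an unadjusted p under 0.05, 16 of the 40 members were higher and 2 lower, against 12% and 8.45% of all genes. Their median log2 change was 0.43, against 0.03 for all genes tested. All 3 KO libraries stood above all 3 WT libraries at 15 of the 40 (37.5%, and 15.1% of all genes) and below them at 1 (2.5%, and 11.4% of all genes). *Ttn*, *Pln*, *Ckm*, *Tnnc2* and *Xirp1* did not reach 0.1 FPKM in 3 libraries and were not tested, and *Cav3* and *Myl2* passed that filter through 1 group only. Without WT replicate 3, 13 members were higher, 0 lower and 27 not called, against 8.8% higher and 5% lower of all genes; without any other single library of day 14, 0 were called. In a fit of all 4 groups together 9 were higher and 0 lower (7.96% and 5.6% of all genes), and with library weights 16 were higher and 3 lower (17.2% and 12.3%), with *Myl2*, *Myl3* and *Tnni3* the lower ones. The 3 KO libraries exceeded WT replicates 1 and 2 at 22 of the 40, against 28.5% of all genes.

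**Figure D2:**
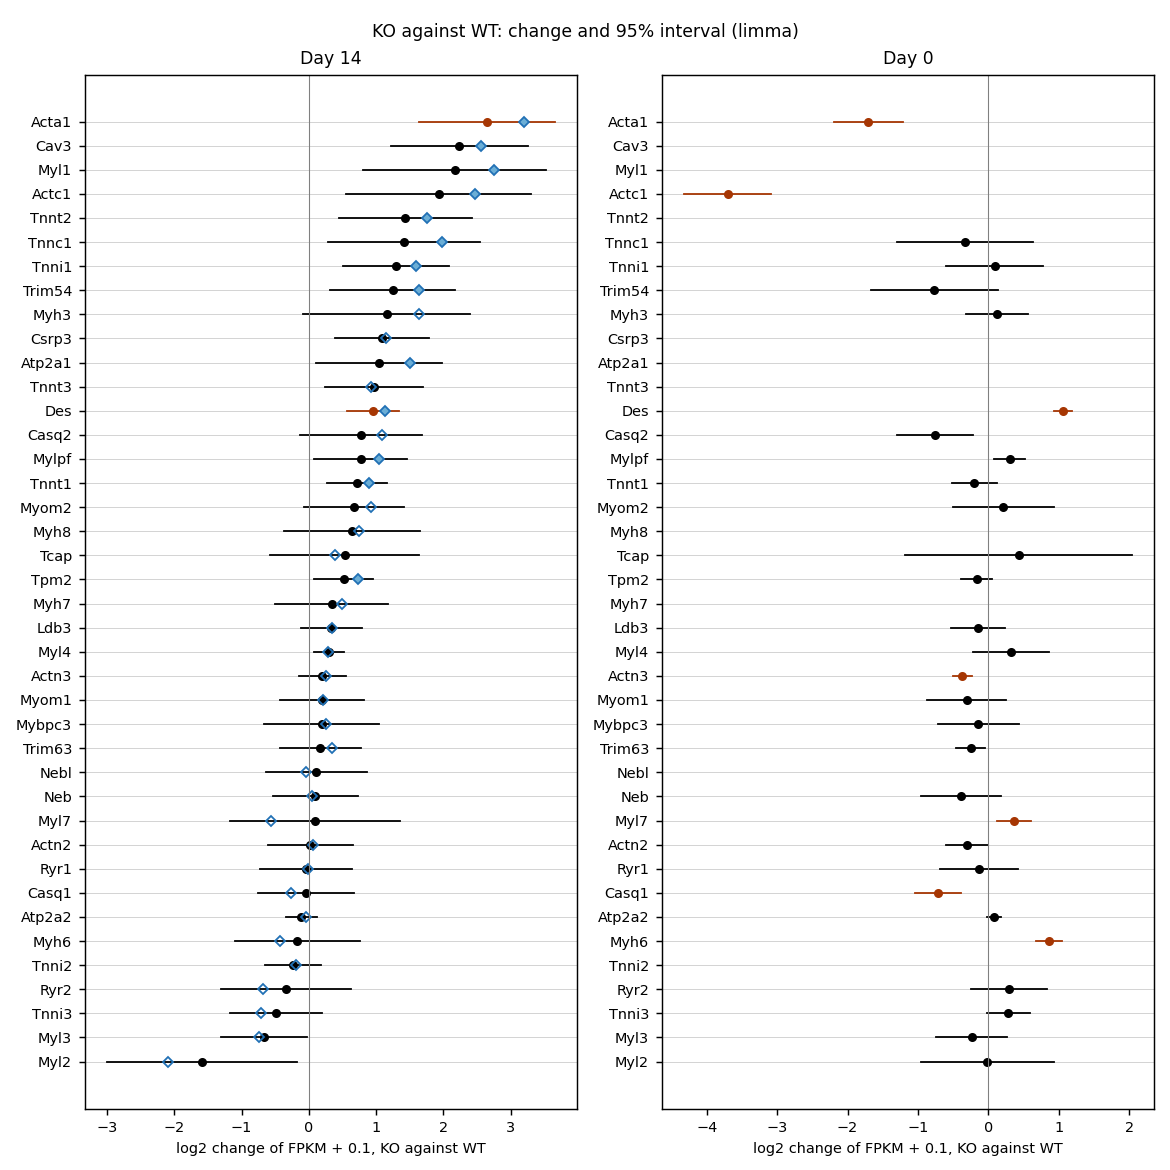
Log2 change of FPKM + 0.1 between KO and WT, with its 95% interval, at day 14 (left) and day 0 (right), for the 40 members tested at day 14; dark orange marks an adjusted p under 0.05, diamonds give the day 14 change without WT replicate 3 (filled where called), and empty rows at day 0 were not tested. *Acta1* and *Actc1* lie to the right of 0 at day 14 and to the left of it at day 0.

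*Acta1* encodes skeletal muscle alpha-actin, the main actin of adult skeletal fibres (ENSMUSG00000031972, chromosome 8, 123891769 to 123894751, mm10). At day 14 it measured 18.2, 16.1 and 53.2 FPKM in WT against 169, 145 and 159 in KO. The groups did not overlap, and WT replicate 3 lay between the other WT libraries and KO. KO exceeded WT by 2.65 on the log2 scale (SE 0.42, adjusted p = 0.0344), a ratio of mean FPKM of 5.41. Without WT replicate 3 the change was 3.19 (adjusted p = 0.000645), and without any one of the other 5 libraries the adjusted p was 0.101 to 0.140.

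*Actc1* encodes cardiac alpha-actin, which embryonic skeletal muscle also uses (ENSMUSG00000068614, chromosome 2, 114047282 to 114053548). Its day 14 levels were 23.1, 7.86 and 41.6 FPKM in WT against 72.0, 54.7 and 108 in KO. All KO libraries were above all WT libraries, but the WT libraries spread over more than the gap between groups. The change of 1.93 (SE 0.58) did not pass (adjusted p = 0.137), and without WT replicate 3 it was 2.47 (adjusted p = 0.0292). The coding sequences of the actin genes are nearly identical, and how fragments matching several of them were counted is not stated, so the split between actins is uncertain. *Tpm2*, which encodes beta-tropomyosin, measured 41.2, 44.9 and 66.3 FPKM in WT against 79.8, 69.7 and 64.9 in KO. Here the groups overlapped, and the call (log2 0.52, adjusted p = 0.187) was made only without WT replicate 3 (0.73, adjusted p = 0.0154) among the libraries left out in turn.

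Of the 8 troponins, 7 were tested at day 14 and 0 passed. At an unadjusted p under 0.05, 5 were higher and 0 lower, against 12% and 8.45% of all genes. *Tnni1*, the slow skeletal troponin I that fetal heart also uses, measured 2.11, 1.77 and 3.71 FPKM in WT against 6.02, 4.38 and 8.38 in KO. Its groups did not overlap (log2 1.30, SE 0.33, adjusted p = 0.0969). *Tnnt1*, slow skeletal troponin T, measured 6.79, 5.47 and 8.81 FPKM in WT against 11.7, 9.99 and 12.6 in KO (log2 0.71, SE 0.19, adjusted p = 0.103). *Tnnc1*, the troponin C of heart and slow muscle, measured 5.56, 3.63 and 14.9 FPKM in WT against 17.7, 15.1 and 22.3 in KO, so that WT replicate 3 stood just under the lowest KO library (log2 1.42, SE 0.48, adjusted p = 0.167). *Tnnt2*, cardiac troponin T, measured 1.42, 0.642 and 1.99 FPKM in WT against 3.87, 2.42 and 4.56 in KO (log2 1.43, SE 0.42, adjusted p = 0.127). These 4 genes were called without WT replicate 3, with changes of 1.60, 0.89, 1.99 and 1.76 and adjusted p of 0.0213, 0.0195, 0.0103 and 0.0382.

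The remaining troponins were not called with or without that library. *Tnnt3*, fast skeletal troponin T, measured 3.04, 2.24 and 2.40 FPKM in WT against 5.58, 3.16 and 7.32 in KO, with no overlap (log2 0.97, adjusted p = 0.150). *Tnni2*, fast skeletal troponin I, measured 2.59, 2.72 and 2.94 FPKM in WT against 2.47, 1.88 and 2.69 in KO, with overlapping groups and a 95% interval of the log2 change from −0.65 to 0.18. *Tnni3*, the troponin I of adult heart, measured 1.54, 1.39 and 0.873 FPKM in WT against 0.623, 0.941 and 1.04 in KO (log2 −0.49, adjusted p = 0.381). *Tnnc2*, fast skeletal troponin C, was listed at 0 in all 3 WT libraries and in 2 KO libraries, with 5 fragments in the other. Of its exonic bases 74% also belong to *Ube2c* on the opposite strand, and whether the counting used strand is not stated.

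Myosin heavy chains, the motors of the thick filament, gave no call at day 14. *Myh3*, the embryonic skeletal myosin, measured 2.30, 0.908 and 4.10 FPKM in WT against 3.73, 3.97 and 7.09 in KO, where WT replicate 3 exceeded 2 KO libraries (log2 1.16, adjusted p = 0.269, and 1.63 with adjusted p = 0.0592 without it). *Myh6*, the atrial alpha-myosin that is also the ventricular myosin of the adult mouse, measured 1.61, 0.668 and 0.558 FPKM in WT against 0.588, 0.774 and 0.910 in KO. WT replicate 1 alone was high, and the interval of the log2 change ran from −1.10 to 0.77. *Myh7*, beta-myosin of heart and slow fibres, stayed at 0.438 to 1.36 FPKM over the 6 libraries. *Myh8*, perinatal skeletal myosin, stayed at 0.106 to 0.524 FPKM.

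Light chains stabilise and tune the myosin neck, and 6 were tested at day 14 with 0 calls. *Myl1* encodes the fast skeletal essential light chain (ENSMUSG00000061816, chromosome 1, 66924295 to 66945404). It measured 1.42, 0.484 and 3.06 FPKM in WT against 6.61, 4.70 and 7.84 in KO, with no overlap (log2 2.17, SE 0.57, adjusted p = 0.105, and 2.75 with adjusted p = 0.0182 without WT replicate 3). *Mylpf*, the fast skeletal regulatory light chain, measured 23.0, 13.1 and 31.0 FPKM in WT against 35.5, 33.0 and 40.0 in KO (log2 0.77, adjusted p = 0.204, and 1.05 with adjusted p = 0.0382 without WT replicate 3). *Myl4*, the atrial and fetal essential light chain, had the tightest groups, 7.04, 7.41 and 7.05 FPKM in WT against 8.55, 8.78 and 9.20 in KO (log2 0.30, SE 0.09, adjusted p = 0.145).

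The remaining light chains were not called at day 14 with or without that library. *Myl3*, the ventricular and slow essential light chain, was the 1 member with all KO libraries below all WT libraries among those tested, at 1.82, 1.24 and 1.30 FPKM in WT against 0.829, 0.650 and 1.18 in KO (log2 −0.67, adjusted p = 0.227). *Myl2*, the ventricular and slow regulatory light chain, measured 0.896, 0.809 and 0.231 FPKM in WT against 0.316, 0.0262 and 0.110 in KO, on 1 to 33 fragments per library (log2 −1.59, adjusted p = 0.201, and −2.10 with adjusted p = 0.0519 without WT replicate 3). WT replicate 3 was the low WT library here. *Myl7*, the atrial regulatory light chain, measured 10.4, 6.48 and 2.04 FPKM in WT against 5.31, 5.02 and 6.37 in KO, so that the WT libraries enclosed KO (log2 0.09, adjusted p = 0.933, and −0.56 with adjusted p = 0.133 without WT replicate 3), and its sign turned with TPM scaling.

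At the Z-disc, *Des* passed at day 14. It encodes desmin, the intermediate filament that ties neighbouring myofibrils together and that smooth muscle also makes (ENSMUSG00000026208, chromosome 1, 75360329 to 75368579). It measured 19.3, 18.7 and 27.7 FPKM in WT against 42.8, 38.1 and 45 in KO, with no overlap (log2 0.96, SE 0.16, adjusted p = 0.0403). Without WT replicate 3 the change was 1.14 (adjusted p = 0.00515), and without any one of the other 5 libraries the adjusted p was 0.126 to 0.159. *Csrp3*, muscle LIM protein, measured 0.572, 0.376 and 0.543 FPKM in WT against 1.02, 0.899 and 1.67 in KO, also with no overlap (log2 1.09, adjusted p = 0.110). *Ldb3*, a Z-disc PDZ protein, measured 0.995 to 1.09 FPKM in WT against 1.16 to 1.57 in KO, and did not pass (log2 0.34, adjusted p = 0.358). *Actn2* and *Actn3*, the muscle alpha-actinins, overlapped between groups at 2.84 to 5.29 and 2.65 to 3.59 FPKM. *Tcap*, the titin cap telethonin, rested on 2 to 9 fragments per library (0.106 to 0.509 FPKM, log2 0.53, adjusted p = 0.551), and *Xirp1*, an actin-binding Xin repeat protein, stayed at 0.0517 to 0.0902 FPKM.

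Genes of the giant filaments and the M-band were low throughout day 14. *Myom2*, an M-band protein, measured 0.278, 0.394 and 0.644 FPKM in WT against 0.598, 0.773 and 0.812 in KO (log2 0.67, adjusted p = 0.284). *Ttn*, the giant spring of the sarcomere, stood at 0.0444 to 0.143 FPKM, which its great length turned into 109 to 313 fragments per library, so its level was well counted although it was below the filter. *Neb*, *Nebl*, *Myom1* and *Mybpc3* lay between 0.128 and 0.459 FPKM, with changes of 0.10, 0.11, 0.20 and 0.19.

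The calcium genes showed no call at day 14, and their median log2 change was −0.04. *Atp2a1*, the SERCA pump of fast skeletal fibres, measured 0.958, 0.729 and 2.36 FPKM in WT against 2.57, 2.82 and 2.30 in KO, with WT replicate 3 inside the KO range (log2 1.04, adjusted p = 0.207, and 1.5 with adjusted p = 0.0125 without that library). Its last exons overlap *Rabep2* on the opposite strand over 21.9% of its exonic bases. *Atp2a2*, the SERCA of heart, slow fibres and, as a shorter form, most other cells, measured 44.0, 40.8 and 48.7 FPKM in WT against 38.9, 44.1 and 40.1 in KO, with an interval of −0.34 to 0.12. *Casq2*, the cardiac and slow calsequestrin, measured 0.938, 0.472 and 1.39 FPKM in WT against 1.5, 1.21 and 2.02 in KO (log2 0.78, adjusted p = 0.300). The release channels *Ryr1* of skeletal and *Ryr2* of cardiac muscle stayed between 0.107 and 0.389 FPKM. *Pln*, the SERCA inhibitor of heart, had 1 to 4 fragments in each WT library and 0 in each KO library. Genes on the opposite strand share 64.7% of its exonic bases.

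*Cav3*, the caveolin of muscle membranes (ENSMUSG00000062694, chromosome 6, 112459505 to 112472872), measured 0.0944, 0 and 0.173 FPKM in WT at day 14 and 0.622, 0.618 and 0.974 FPKM in KO. These values rest on 0 to 4 fragments per WT library and 14 to 21 per KO library. The change of 2.24 (SE 0.43) lay at the threshold (adjusted p = 0.0516) and was called without WT replicate 3 (2.56, adjusted p = 0.0193). *Trim54*, the RING finger protein MuRF3 of microtubules and Z-discs, measured 2.28, 1.37 and 4.15 FPKM in WT against 6.58, 6.72 and 4.26 in KO (log2 1.25, adjusted p = 0.148, and 1.64 with adjusted p = 0.0227 without WT replicate 3). KO replicate 3 lay close to WT replicate 3. The antisense gene *Gm15469* shares 26.6% of its exonic bases. *Trim63*, the atrophy-linked MuRF1, overlapped at 1.16 to 2.19 FPKM, and *Ckm*, the creatine kinase of mature muscle, had 0 to 9 fragments per library.

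Some members were well expressed in undifferentiated ESCs. *Atp2a2* measured 49.1 to 54.1 FPKM over the 6 libraries, *Mylpf* 36.2 to 53.5 FPKM, *Actn3* 20.0 to 27.7 FPKM and *Des* 11.2 to 26.2 FPKM. At day 0, 30 members were tested, of which 3 were higher in KO and 4 lower. Of all 19238 genes tested 11% were higher and 10.4% lower, so these shares, 10% and 13.3%, lie near the background and are no result about the members as a group. *Actc1* passed the filter through WT only.

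Of the 30 members tested at day 0, *Actc1* and *Acta1* had the most negative log2 changes. *Acta1* measured 2.95, 3.59 and 3.22 FPKM in WT ESCs against 1.30, 0.746 and 0.811 in KO (log2 −1.70, SE 0.20, adjusted p = 0.00191). *Actc1* measured 1.80, 1.61 and 1.14 FPKM in WT against 0.0352, 0.0354 and 0 in KO, that is 34 to 50 fragments per WT library against 1, 1 and 0 (log2 −3.70, SE 0.26, adjusted p = 0.00023, a size that depends on the 0.1 FPKM added). The groups did not overlap for either gene. Also lower were *Actn3*, the fast-fibre alpha-actinin, at 27.7, 25.0 and 27.4 FPKM in WT against 20.0, 21.7 and 20.3 in KO (log2 −0.37, SE 0.06, adjusted p = 0.0048), and *Casq1*, the skeletal calsequestrin, at 3.07, 3.00 and 4.06 FPKM in WT against 2.07, 1.82 and 2.12 in KO (log2 −0.71, SE 0.14, adjusted p = 0.0123).

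Higher in KO ESCs were *Des*, *Myh6* and *Myl7*. *Des* measured 12.2, 12.4 and 11.2 FPKM in WT against 24.2, 26.2 and 24.4 in KO (log2 1.06, SE 0.06, adjusted p = 9.14e-05), and the KO effect at day 14 differed from this by −0.10 (95% interval −0.51 to 0.30). *Myh6* measured 1.84, 1.88 and 2.02 FPKM in WT against 3.51, 3.62 and 3.55 in KO (log2 0.86, SE 0.08, adjusted p = 0.000657). *Myl7* measured 7.68, 6.88 and 8.01 FPKM in WT against 8.69, 11.1 and 9.50 in KO (log2 0.37, SE 0.10, adjusted p = 0.0435), a call kept only when KO replicate 1 was left out, with adjusted p of 0.0725 to 0.125 without any one of the other 5 libraries.

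Whether the KO effect depended on the day was tested with the interaction over all 12 libraries, which uses the same libraries as the comparisons above. The effect was more positive at day 14 than at day 0 for 6 of 40 members, *Acta1*, *Actc1*, *Actn3*, *Myl1*, *Tnnt1* and *Cav3*, and more negative for 0. Among all 22913 genes tested, 4.22% and 2.91% were called. For *Acta1* the difference between the 2 effects was 4.35 (SE 0.52, adjusted p = 0.00103), and for *Actc1* it was 5.63 (SE 0.68, adjusted p = 0.00114). In both actins KO was below WT at day 0 and above it at day 14, with non-overlapping groups at either day. These 2 calls held when any single library was left out, with an adjusted p of at most 0.00486 for *Acta1* and 0.00506 for *Actc1*.

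The other 4 differences were closer to the threshold. *Myl1* gave 2.61 (SE 0.67, adjusted p = 0.0423), having 1 or 2 fragments in each WT ESC library, 0 in each KO ESC library, and 191 to 303 in each KO library of day 14. *Cav3*, which had 0 fragments in all 6 ESC libraries, gave 2.24 (SE 0.49, adjusted p = 0.0226). Its KO effect at day 0 was thus fixed at 0, and this difference is its day 14 change, so the call is no separate evidence. It passed the filter through KO at day 14. *Tnnt1* (ENSMUSG00000064179, chromosome 7, 4504570 to 4516382) gave 0.91 (SE 0.25, adjusted p = 0.0486). It measured 4.85, 3.87 and 5.32 FPKM in WT ESCs against 3.59, 4.39 and 4.14 in KO ESCs. *Actn3* (ENSMUSG00000006457, chromosome 19, 4861216 to 4877909) gave 0.57 (SE 0.13, adjusted p = 0.0300), from a KO deficit at day 0 that had no counterpart beyond replicate spread at day 14 (log2 0.20, adjusted p = 0.475). Leaving out 1 library in turn gave adjusted p of 0.00292 to 0.0953 for *Myl1*, 0.00449 to 0.0551 for *Cav3*, 0.0073 to 0.118 for *Tnnt1* and 0.0102 to 0.0807 for *Actn3*. Without WT replicate 3 of day 14, 13 members were called higher and 3 lower (*Myh6*, *Myl7* and *Tnni3*), against 10.5% and 8.59% of all genes.

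**Figure D3:**
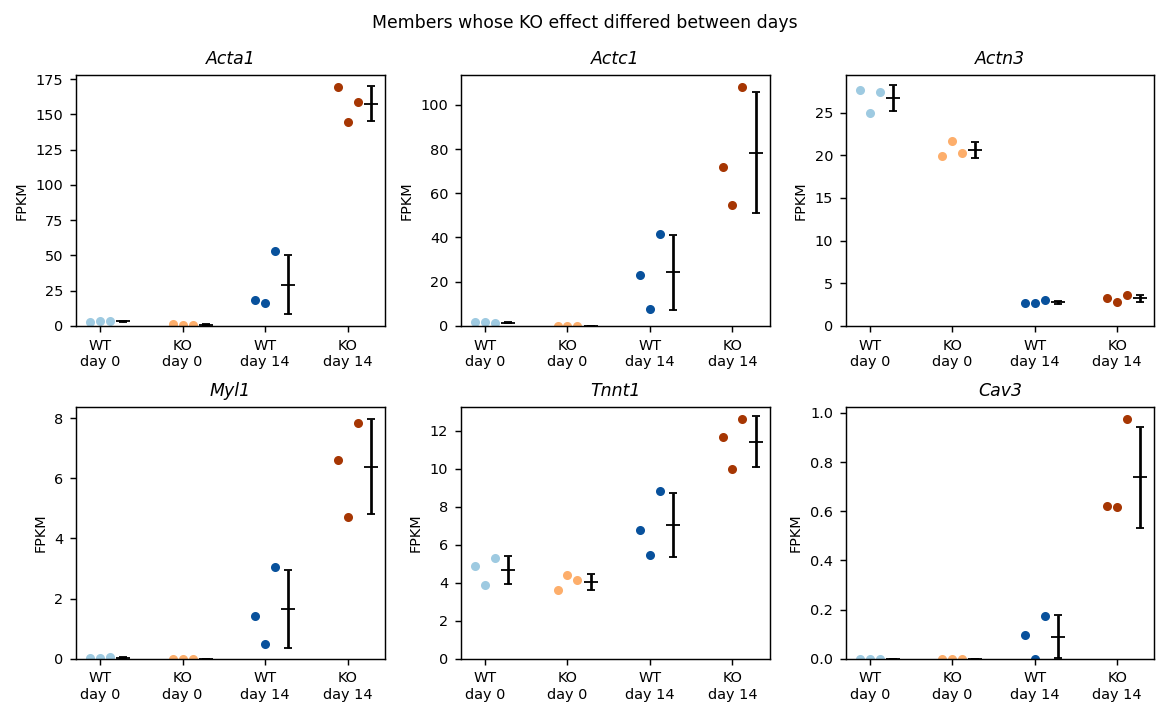
FPKM of the 6 members whose KO effect differed between days, 1 panel per gene with its own linear axis from 0; points are the 3 libraries of each group, and the bar beside them is the mean ± SD. For *Acta1*, KO lies below WT at day 0 (mean 0.952 against 3.25 FPKM) and above it at day 14 (158 against 29.1 FPKM).

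Differentiation itself moved most members. In WT, 20 of 39 tested members were higher at day 14 than at day 0 and 6 lower, where 29% and 26.4% of all 20326 genes tested were called. In KO, 25 of 40 were higher and 9 lower, where 33.5% and 29.8% of all 20347 genes tested were called. Of the members tested, 12 in WT and 13 in KO passed the filter through 1 of the 2 groups alone, which favours a difference and limits how these counts can be read. *Acta1* went from a mean of 3.25 to 29.1 FPKM in WT (log2 2.91, SE 0.43, adjusted p = 0.00128) and from 0.952 to 158 FPKM in KO (log2 7.26, SE 0.19, adjusted p = 4.2e-07). *Tnnc1* went from 0.722 to 8.01 FPKM in WT (log2 3.19, adjusted p = 0.00381) and from 0.492 to 18.3 FPKM in KO (log2 4.94, adjusted p = 7.41e-07). *Tpm2* went from 7.20 to 50.8 FPKM in WT (log2 2.77) and from 6.39 to 71.5 FPKM in KO (log2 3.46).

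Several members had no fragment before differentiation in KO. In its ESCs *Myl1*, *Tnnt3*, *Tnni2* and *Cav3* had 0 fragments in every library. With 3 fragments over the group as the floor, they were at least 232.5-fold, 148.8-fold, 61.64-fold and 14.99-fold higher at day 14 in KO. *Tnni2* reached 2.75 ± 0.18 FPKM for WT against 2.35 ± 0.42 FPKM for KO at day 14 (SD, n = 3), and *Tnnt3* 2.56 ± 0.42 and 5.36 ± 2.1 FPKM.

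Other members fell on differentiation. *Actn3* fell from 26.7 to 2.78 FPKM in WT (log2 −3.22, adjusted p = 2.73e-06) and from 20.6 to 3.22 FPKM in KO (log2 −2.65, adjusted p = 1.76e-06). *Casq1* fell from 3.38 to 0.580 FPKM in WT and from 2.00 to 0.534 FPKM in KO. Lower at day 14 in both genotypes were also *Myh6*, *Mylpf*, *Ryr1* and *Trim63*, and in KO *Myl7*, *Tnni3* and *Atp2a2* as well. In WT the calls of *Myh6* (adjusted p = 0.0391) and *Mylpf* (adjusted p = 0.0373) were near the threshold. Neither was called in WT with TPM, without a filter, or without any one WT library of day 0. Mean *Myh6* was lower at day 14 in cultures where *Myh7* rose, from 0.0813 to 0.679 FPKM (WT) and from 0.0992 to 0.906 FPKM (KO). In WT, *Myh7* passed the filter through day 14 only. *Casq2* was called higher at day 14 in KO (0.437 to 1.58 FPKM, adjusted p = 0.000661) and measured 0.827 and 0.933 FPKM in WT, and the difference between those 2 changes, 1.54, did not pass (adjusted p = 0.0746), although it did without WT replicate 3 of day 14 (1.86, adjusted p = 0.0137).

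Because FPKM is per length, paralogs of a family can be set beside each other, but the shares depend on the gene length used. That length differed between paralogs, at 7752 bases for *Tnnt2*, 2204 for *Tnnt1* and 1583 for *Tnnt3*, and 4637 for *Myl4* against 2074 for *Myl1*. In KO at day 14 *Tnnt2* had 1609 fragments and *Tnnt1* 1450, although *Tnnt1* had the larger share of FPKM. Among the troponin I genes, *Tnni3* gave 93.2% of the summed FPKM in WT ESCs and 94.4% in KO ESCs, and 20.0% and 9.50% at day 14. At day 14 *Tnni1* gave 37.7% in WT (30.1% to 49.3% over the libraries) and 65.4% in KO (60.9% to 69.2%), so the libraries did not overlap. *Tnni2* gave 42.3% and 25.1%. Among the essential light chains, *Myl1* accounted in day 14 cells for 15.3% in WT (5.30% to 26.9%) and 39.2% in KO (33.3% to 43.0%), and *Myl4* gave 70.5% and 55.4%. Of the 2 sarcomeric actins, *Acta1* gave 68.3% in WT ESCs, 97.6% in KO ESCs, and 55.8% and 67.4% at day 14. These shares were not tested, and WT replicate 3 was the WT library nearest to KO for *Tnni1*, *Myl1* and *Myh3*.

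**Figure D4:**
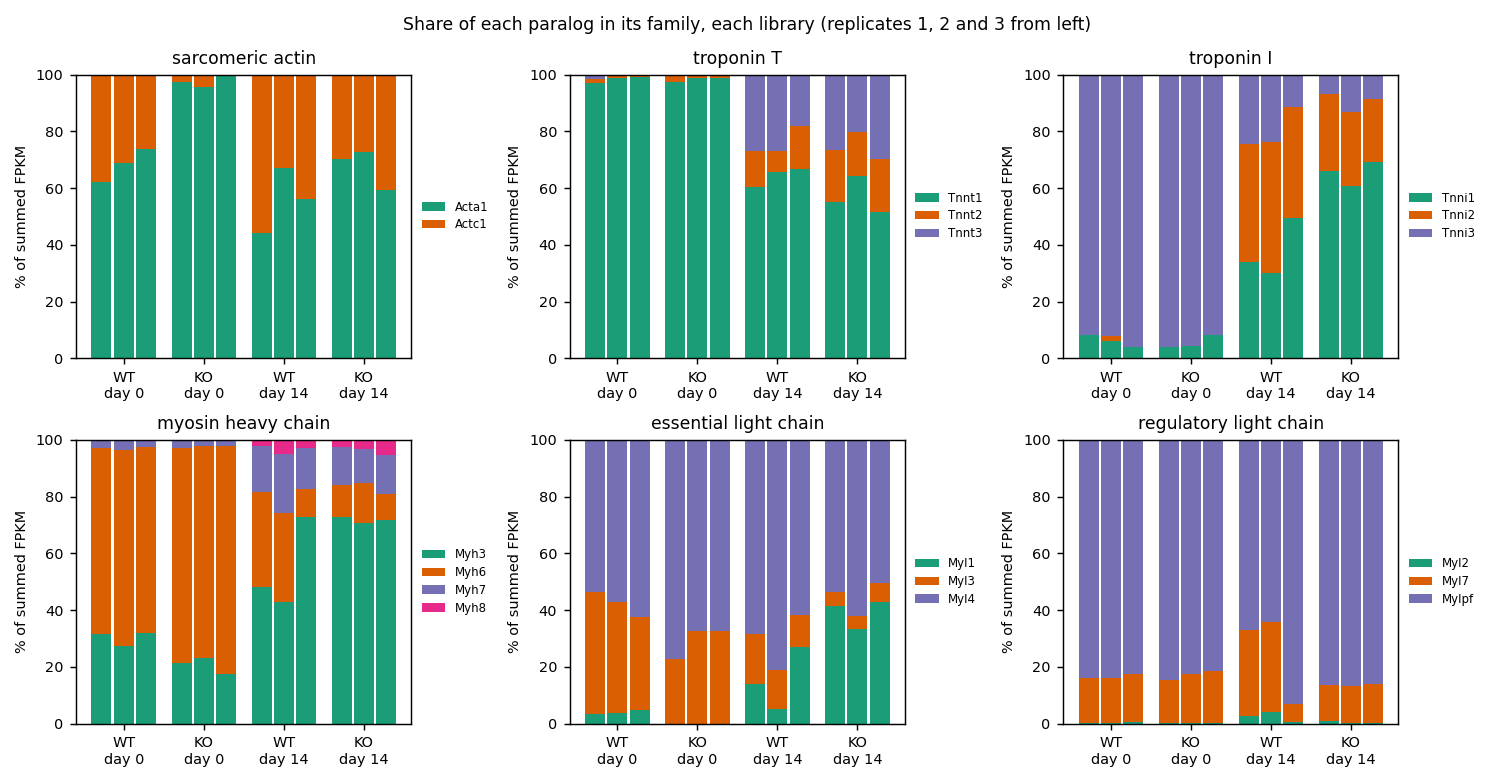
Share of each paralog in the summed FPKM of its family, in percent, for 6 families; each bar is 1 library, with replicates 1, 2 and 3 of a group from left to right. *Tnni3* fills over 90% of the troponin I bars at day 0, and *Tnni1* takes 60.9% to 69.2% of those of KO at day 14 against 30.1% to 49.3% of those of WT.

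Shares of FPKM were read in further families, with the same limit of gene length. Troponin T was 98.3% *Tnnt1* in ESCs of either genotype, and at day 14 *Tnnt1* gave 64.2% in WT and 57.0% in KO. Alpha-actinin was 90.6% *Actn3* in WT ESCs and 43.9% at day 14. Among myosin heavy chains *Myh6* led in ESCs (66.7% in WT, 76.9% in KO), and *Myh3* led at day 14, with 48.0%, 42.8% and 72.7% in the WT libraries and 70.8% to 72.7% in KO, so that WT replicate 3 fell at the top of the KO values. *Atp2a2* kept 94.1% to 99.95% of SERCA in every group mean.

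The wider muscle programme was read from lists of other genes. Of all genes tested at day 14, 1.45% were called higher in KO and 0.883% lower, and 12% and 8.45% had an unadjusted p under 0.05. Of 46 other sarcomere genes 38 were tested at day 14, and 1 was called higher in KO, *Fhl1*, a LIM domain protein of muscle (28.3, 31.8 and 33.6 FPKM in WT against 44.1, 42.0 and 44.7 in KO, log2 0.48, adjusted p = 0.0489). At an unadjusted p under 0.05, 6 of the 38 were higher and 0 lower. The filter was passed through 1 group only by 10 of the 38. Of the other calcium and energy genes 36 were tested and 0 called, with 4 higher and 1 lower at an unadjusted p under 0.05. Myogenic regulators gave 0 calls among 13 tested, with 5 higher and 1 lower at an unadjusted p under 0.05. *Myog*, the myogenin gene of skeletal myoblasts, measured 7.38, 2.37 and 16.2 FPKM in WT against 22.0, 15.9 and 26.6 in KO, with WT replicate 3 again high (log2 1.66, adjusted p = 0.207). In ESCs 1 of 8 myogenic regulators tested was higher in KO and 4 lower, against 11% and 10.4% of all genes. Among the lower ones was *Srf*, named after its values were seen, which encodes serum response factor (23.6, 21.3 and 21.5 FPKM in WT against 16.8, 16.2 and 16.8 in KO, log2 −0.41, adjusted p = 0.0022). Its level at day 14 is not given here, and a link between *Srf* and the members was not tested.

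Cardiac markers were read in the same way, against the same shares of all genes. Of 10 cardiac transcription factors tested at day 14, 0 were higher in KO and 1 lower, *Hand2* (2.79, 2.01 and 2.26 FPKM in WT against 0.743, 0.413 and 0.457 in KO, log2 −1.97, adjusted p = 0.0211), with 0 higher and 4 lower at an unadjusted p under 0.05. Cardiac peptides and channels gave 0 calls of 4 tested, with 1 higher at an unadjusted p under 0.05. *Nkx2-5*, a cardiac homeobox gene, overlapped between groups at 0.473 to 0.926 FPKM. Of the smooth muscle list 8 were tested and 1 was called, *Des* itself. *Acta2*, smooth muscle alpha-actin, measured 50.5, 49.4 and 137 FPKM in WT against 225, 153 and 240 in KO at day 14 (log2 1.53, adjusted p = 0.106), and 2.99, 3.38 and 3.41 FPKM in WT against 0.726, 0.600 and 0.567 in KO ESCs (log2 −2.20, adjusted p = 0.000135), the same order of groups as *Acta1*.

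Markers of other cells moved with genotype and with WT replicate 3. Their counts stand beside 1.45% of all genes called higher in KO at day 14 and 0.883% called lower. Of 8 trophoblast markers 6 were lower in KO at day 14, 3 of which passed the filter through WT alone, and the list summed to 330, 472 and 271 FPKM in WT against 138 to 163 in KO. *Tpbpa*, a spongiotrophoblast marker, was at 11.0, 36.5 and 6.78 FPKM in WT and listed at 0 in 2 KO libraries. Of 5 endothelial markers tested 2 were lower, with sums of 43.3, 54.1 and 23.6 FPKM in WT against 13.9 to 17.9 in KO. The fibroblast list had 1 higher and 1 lower of 8, with sums of 130 to 142 FPKM in WT against 79.8 to 89.6 in KO. The yolk sac and liver list had 1 lower of 4 tested, 3 of these 4 having passed the filter through WT alone, with sums of 28.1, 18.6 and 4.28 FPKM in WT against 0.321 to 0.739 in KO. Neural markers gave 0 calls of 5 and 0 at an unadjusted p under 0.05, and pluripotency genes 0 calls of 6, with 3 higher at an unadjusted p under 0.05. WT replicate 3 was the lowest WT library in the trophoblast, endothelial, fibroblast and yolk sac lists and the highest for *Acta1*, *Actc1*, *Myl1* and *Tnni1*. The part of these cell types in the differences of the members was not tested.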

How the data were processed

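Members and gene lists were chosen with earlier results of these data known. The authors mapped reads to mm10 with HISAT2 2.0.5, counted them per gene with featureCounts 1.5.0-p3 and deposited FPKM values, 1 table per library; the annotation release and strand setting are not given in the sources used here. FPKM × gene length was a whole multiple of what 1 fragment is worth in 100% of values (within 0.001), so fragments were read back. Of the 66 library pairs 0 were identical.

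Groups came from the labels. The study states 3 biological replicates per group, but not whether these were separate cultures, so p-values measure the spread between these libraries and, with 1 clone named, not that between clones. A gene entered a fit if 3 or more of its libraries reached 0.1 FPKM, and was tested with limma 3.58.1 (R 4.3.3, trended eBayes) on log2(FPKM + 0.1), per comparison over its 6 libraries and for the interaction over all 12. Fold changes on that scale understate those of low genes. P-values were Benjamini-Hochberg adjusted over all genes tested, and calls needed an adjusted p under 0.05. An exact permutation test of 3 against 3 cannot go below 0.1 and was not used.

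All 45 members are described. Other named genes came from the lists, in part by smallest adjusted p at day 14. *Myog*, *Acta2* and the cardiac homeobox gene were not chosen by their p. *Srf* was named after its values in ESCs were seen. *Myod1*, which the study names among its myogenesis genes, is not described. Members followed through the alternatives were the 12 with the highest day 14 mean and those called in KO against WT or in the interaction. The alternatives tried were a pseudocount of 1 or of 0.01, filtering at 1 FPKM or not at all, median ratio and TPM scaling, voom on recovered fragments, all 4 groups in one fit, library weights, the replicate block, a fold of 2, and leaving out each library. Fits were tested on simulated data. Promoters and motifs came from RefSeq (GRCm38.p6).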

Additional observations from a re-analysis of the deposited data

Results flagged for a closer look

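The KO effect, KO against WT, differed between day 14 and day 0 by the interaction term of limma for 6 members. The difference of the log2 changes, day 14 minus day 0, was 4.35 for *Acta1*, 5.63 for *Actc1*, 2.61 for *Myl1*, 2.24 for *Cav3*, 0.91 for *Tnnt1* and 0.57 for *Actn3*, each from 3 libraries per group. *Acta1*, *Actc1* and *Actn3* were called lower in KO at day 0 and measured above WT at day 14, where *Acta1* alone of the 3 passed. *Actc1* rests on 2 fragments in all 3 KO ESC libraries together, and *Cav3* on 0 fragments in all 6 ESC libraries. *Myl1* had 4 fragments in the WT ESC libraries together and 0 in those of KO, and was not tested at day 0. The size of the differences of *Actc1*, *Cav3* and *Myl1* therefore depends on the 0.1 FPKM added. For *Cav3* the effect at day 0 was fixed at 0, and the difference is its day 14 change.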

How the results depend on the processing

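Members called higher in KO at day 14 (2) became 1 with at least 2-fold, 1 with TPM, 0 without a filter, 0 with the replicate block, 9 when all 4 groups were fitted together, 16 with library weights, and 0 to 13 when 1 library was left out; those lower (0) became 3 with library weights (*Myl2*, *Myl3* and *Tnni3*). Members higher in KO at day 0 (3) became 1 with at least 2-fold and 1 when all 4 groups were fitted together, and those lower (4) became 2 with at least 2-fold. Members higher at day 14 in WT (20) became 12 with the filter of 1 FPKM, and those lower in KO (9) became 4 with at least 2-fold. Members whose KO effect differed between days (6) became 2 without a filter, 3 with TPM, 1 with voom (*Acta1*), 16 with library weights, and 2 to 16 when 1 library was left out. Of all 22913 genes tested for that difference, library weights called 3261 higher and 2711 lower. Voom called 750 and 571 of them, and the main fit 966 and 667. Other counts stayed within 1.5 times, with ranges over single libraries left out of 17 to 21 and 4 to 6 for WT, 23 to 25 and 7 to 9 for KO over time, and 2 to 3 and 4 to 5 for KO against WT at day 0. *Myl7* at day 14 (0.09) reversed to −0.045 with TPM, −0.72 with library weights, and, over single libraries left out, ranged from −0.56 without WT replicate 3 to 0.59 without WT replicate 1, with −0.0043 without KO replicate 3; no other followed member reversed, and of the alternative values of the followed members 200 kept a call and 84 lost it, while of those not called in the main analysis 208 stayed uncalled in the same direction and 25 became calls. The cause was not tested.

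Replicate numbers did not pair the samples, since same-numbered deviations correlated at −0.278 to 0.0297, and the block left 2 genes higher and 11 lower at day 14 of all genes, against 298 and 181. TPM moved the median of all genes by −0.14 at day 14, 0.11 at day 0, 0.21 in WT over time and −0.24 in the interaction, and turned the calls of all genes at day 14 to 160 higher and 231 lower, at day 0 from 2115 and 2003 to 1494 and 606, in WT over time from 5903 and 5370 to 6552 and 3422, and in the interaction from 966 and 667 to 286 and 848. *Ttn*, *Pln*, *Ckm*, *Tnnc2* and *Xirp1* were too low to test; of these, all but *Ttn* rested on at most 11 fragments per library.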
